A study of Mus musculus with 6 samples.

Results

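The genes described here encode the proteins of oxidative phosphorylation that are made from nuclear DNA, measured in 6 thymic lymphomas of Ikaros-deficient mice. They were chosen by name on a mouse expression array. A member has a symbol that starts with Nduf, Uqcr, Atp5 or Cox4 to Cox8, or is Sdha, Sdhb, Sdhc, Sdhd, Cyc1 or Cycs, and the rule uses no measured value. This gave 184 probe sets for 92 genes, of 18193 genes that the array table names by a single symbol. Where a gene had several probe sets, the one brightest on average over the 6 arrays stood for it. Another 10 probe sets carry several symbols that include a name of this kind and were not used. Of the 92 genes, 88 passed a filter on dim probe sets. The other 4, Cox7b2, Cox8b, Ndufa4l2 and Ndufb4, had at most 20.3 on any array and were not tested.

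All 6 mice were homozygous for the IkL allele of Ikzf1, which encodes the lymphoid transcription factor Ikaros, and all carried CD4-Cre, a recombinase expressed in developing thymocytes. In 3 of them Notch1 was wild type (IkL/L Notch1+/+ CD4-Cre+, aged 18 to 20 weeks). The other 3 had floxed Notch1 (IkL/L Notch1f/f CD4-Cre+, aged 8 to 10 weeks), with a deletion of promoter and exon 1 sequence in the tumours per the labels. Age and genotype changed together and cannot be told apart, and the labels give no strain, sex or batch. Each tumour is 1 mouse and 1 array, collected by disrupting the tissue, with no sorting step in the labels, which call the cells transformed T cells.

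Oxidative phosphorylation takes place in the inner mitochondrial membrane. Complex I oxidises NADH and complex II oxidises succinate, and both pass electrons through ubiquinone to complex III, then through cytochrome c to complex IV, which reduces oxygen. Protons pumped by complexes I, III and IV drive ATP synthase, complex V. A few subunits are encoded in mitochondrial DNA, and the nuclear genes supply the remaining subunits and all factors that assemble them. Thymocytes and lymphomas that divide use this pathway beside glycolysis, both for ATP and to keep the citric acid cycle running.

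Few nuclear subunits stood apart between the genotypes. None of the 88 tested members passed an adjusted p of 0.05 (limma with Benjamini-Hochberg adjustment over all 27022 tested probe sets, of which 5, or 0.0185%, passed), and the smallest adjusted p of a member was 0.202. At an unadjusted p of 0.05, 5 members were higher and 1 was lower in the Notch1f/f tumours, which is 5.68% and 1.14% of the members, against 6.97% and 6.21% of all 12042 genes tested. A difference of at least 1.5-fold was found for 2 members on the higher side, Cox7a2l and Ndufb1, and for none on the lower side, where 7.78% and 7.79% of all genes reached it in each direction. Ndufb1 was singled out after its values were seen. Differences and folds were computed on log2(intensity + 16), where the added 16 shrinks those of dim genes.

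Most members lay slightly on the higher side. Of the 88, 59 were above 0 on the log2 scale and 29 below, with a median of 0.12 and quartiles of -0.05 and 0.23. Over all genes tested the median was -0.01, with quartiles of -0.26 and 0.24. The median absolute log2 difference was 0.17 for the members and 0.25 for all genes. The members were bright, with a median log2 intensity between 10.25 and 10.80 on every array. The filter for tested genes stood at 4.56, and at most 25% of all probe sets were brighter than 100 on any array. Whether the smaller differences of the members, and their smaller shares at 1.5-fold, go beyond those of equally bright genes was not tested. The median log2 difference of the members depended on Notch1f/f tumour 3. Without this tumour it was -0.01, with 41 of 89 tested members above 0. With quantile normalisation, which makes the distribution of values the same on every array, the median was 0.05.

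Notch1f/f tumour 3 was the highest of the 6 tumours for 59 of the 88 members (67.0%), while it was the highest for 22.4% of all genes. Relative to the mean of the Notch1+/+ tumours, its members had a median of 0.36 on the log2 scale. The other 2 Notch1f/f tumours had -0.02 and 0.04, within the range of the Notch1+/+ tumours, which had -0.08, -0.02 and 0.10. All genes had medians between -0.03 and 0.01 on every array. On the same array the control probe sets for the 3' ends of beta-actin and Gapdh were also the highest of the 6, at 8553 against 7213 to 7798 and at 6557 against 4995 to 5541. The probe sets for their 5' ends were highest in Notch1+/+ tumour 3, at 5633 for beta-actin and 7228 for Gapdh, against 5398.5 and 6866.5 in Notch1f/f tumour 3. Those for the middle of both were highest in Notch1f/f tumour 3, at 6288.5 and 7066. Notch1+/+ tumour 1 was the lowest of the 6 for 32 members (36.4%) and for 18.7% of all genes. On this array the ratio of the 3' to the 5' signal of beta-actin, which depends on RNA quality, was 2.23, against 1.35 to 1.64 on the other 5. The same ratio of Gapdh was 1.075, against 0.767 to 1.027. Notch1f/f tumour 3 had 1.58 for beta-actin and 0.955 for Gapdh. The part of these differences between arrays in the results was not tested.

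**Figure D1:**
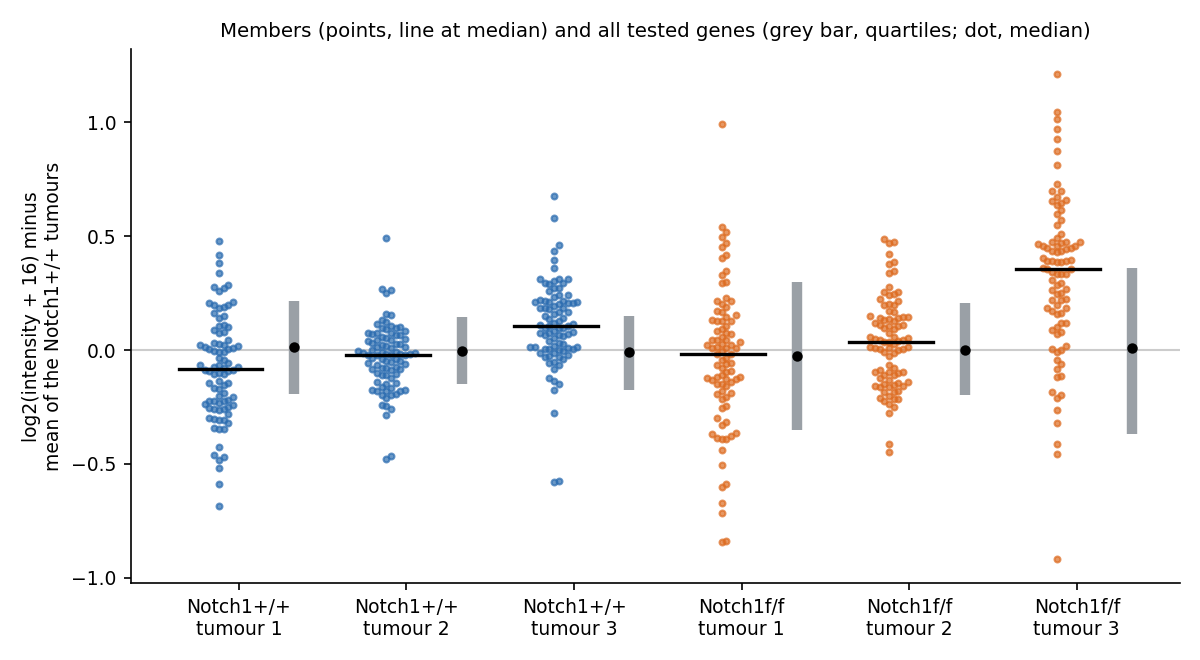
Each point is 1 of the 88 tested members on 1 array, plotted as its log2(intensity + 16) minus its mean over the 3 Notch1+/+ tumours, with a line at the median; the grey bar and dot give the quartiles and median of all 12042 tested genes. The members of Notch1f/f tumour 3 have a median of 0.36, and those of the other 5 tumours have medians from -0.08 to 0.10.

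The arrays and cells were checked against their labels with a short list of markers. The mean of the middle 96% of intensities was 100 on every array, and between 23.1% and 25% of all probe sets were brighter than 100. The 9 measured T cell markers were present in all tumours, with a summed intensity of 13660 to 15190 in the Notch1+/+ and 16970 to 19120 in the Notch1f/f tumours. Of the T cell markers 7 had log2 differences above 0 and 2, Ptcra and Rag1, below. The 8 macrophage markers summed to 246 to 893 and to 1431 to 2829. Their sum, like that of the T cell markers, was highest in Notch1f/f tumour 3. Of the macrophage markers 7 were above 0 and 1, Adgre1, below, and Lyz2 alone had 1122.5 in Notch1f/f tumour 3. The 5 B cell markers summed to 57.3 to 77.1 and to 111.5 to 274, again highest in that tumour, where Cd79a had 121. The 7 fibroblast markers summed to 1401 to 2552 and to 868 to 1951. Most of the fibroblast sum was Pdgfrb, with 1103 to 1976 and 813 to 1827. Col1a2 had 407 ± 499 and 41.4 ± 29.1, and Pdgfra, Dcn and Lum reached at most 13.4, 34.5 and 13.6. The 7 dendritic cell markers summed to 32.6 to 66.7 and to 47.6 to 130, highest in Notch1f/f tumour 3, where Itgax had 64.8. The 5 endothelial markers summed to 143 to 285 and to 223 to 239, most of it Pecam1. The 5 adipocyte markers summed to 24 to 154 and to 112 to 132, of which Fabp4 reached 135 and no other over 8.2. The 6 thymic epithelial markers summed to 53.5 to 61.8 and to 49.7 to 61.3, the 4 erythroid markers to 51.3 to 63.3 and to 33.7 to 73.9, and the 8 striated muscle markers to 52.5 to 80.2 and to 41.9 to 88.1. Single markers of these lists reached at most 21.7 (Krt5), 42.1 (Epor) and 46.5 (Actn2). The controls that detect 18S ribosomal RNA were also higher in the Notch1f/f group, for example at 285 ± 34.7 (SD, n = 3) against 97.8 ± 30.5. The part of these signals in the results was not tested, and in bulk tissue fewer cells of a type and less RNA per cell cannot be told apart.

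Cox7a2l had the largest difference of the tested members. It encodes a relative of a complex IV subunit that helps join complexes III and IV into a supercomplex. Its intensities were 1540, 1295 and 1566 in the 3 Notch1+/+ tumours and 2929, 2055 and 2966 in the 3 Notch1f/f tumours. The groups did not overlap, and Notch1f/f tumour 2 was the lowest of its group. The log2 difference was 0.83 ± 0.19 (SE), a fold of 1.78, with an unadjusted p of 0.00151 and an adjusted p of 0.202 in limma, so it did not pass. The exact permutation test gave 0.1, the smallest p that 3 tumours against 3 allow. Any gene without overlap gets this value, so it adds nothing to the lack of overlap. All 3 Cox7a2l probe sets had groups without overlap, with log2 differences of 0.83, 0.76 and 0.82, though they read the same RNA and are not independent. Without each tumour in turn and under the other settings the difference ranged from 0.74 to 1.00 and the adjusted p from 0.0657 to 0.561.

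Cyc1 had the largest difference on the lower side. It encodes cytochrome c1, the haem subunit of complex III that hands electrons to cytochrome c. It had 1547, 2025 and 2259 in the Notch1+/+ tumours and 1065, 1405 and 1395 in the Notch1f/f tumours. Every Notch1f/f tumour was below every Notch1+/+ tumour. The log2 difference was -0.58 ± 0.20 (unadjusted p = 0.0159, limma adjusted p = 0.296). The other 8 measured genes of complex III all had log2 differences above 0, from 0.05 for Uqcrc1 to 0.27 for Uqcr11. They include the Rieske iron-sulfur protein Uqcrfs1, with 1376 ± 257 in the Notch1+/+ and 1601 ± 132 in the Notch1f/f tumours. Uqcrh, the acidic hinge protein that binds cytochrome c1, had 2810 ± 305 and 3289 ± 367.5 and Uqcrb 4743 ± 483.5 and 5392 ± 1095. Their groups overlapped, and Notch1f/f tumour 3 was the highest for all 8. Without this tumour the median over the 9 complex III genes was 0.01, against 0.15 with it. Cycs, the mobile carrier cytochrome c itself, had 2863 ± 158 and 2696 ± 620, and its log2 difference was -0.11 ± 0.18 with a 95% interval from -0.51 to 0.29. Its dimmer probe sets past the filter had -0.46 ± 0.22 and -0.39 ± 0.23, both with overlap (limma adjusted p = 0.3925 and 0.468).

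**Figure D2:**
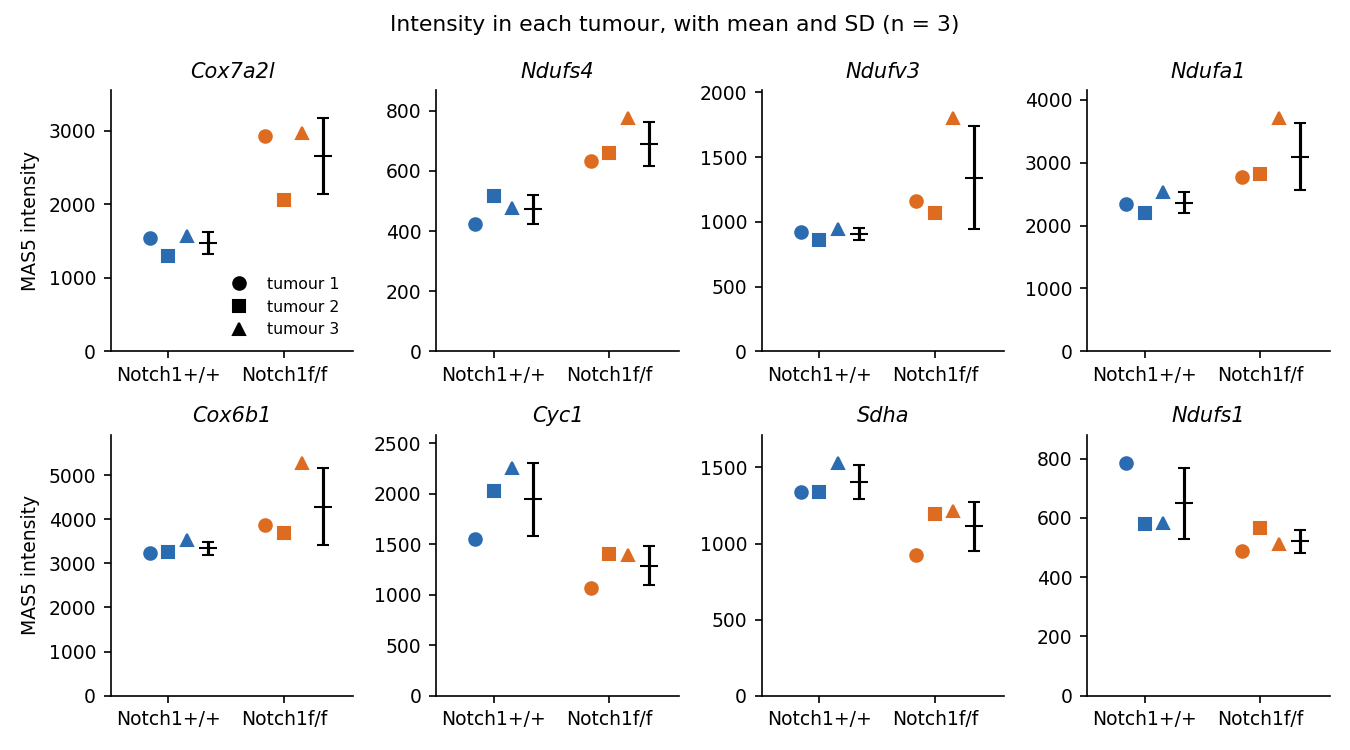
MAS5 intensity of 8 members in each tumour on linear axes that start at 0, with the mean and SD (n = 3) of each group beside the points. In each of the 8 genes the groups do not overlap, with Cox7a2l, Ndufs4, Ndufv3, Ndufa1 and Cox6b1 higher and Cyc1, Sdha and Ndufs1 lower in the Notch1f/f tumours.

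Groups that did not overlap were found for 8 members on the higher side and 3 on the lower side, or 9.09% and 3.41% of the members. Over all genes tested these shares were 9.21% and 9.14%. On the higher side they were Cox7a2l, Ndufs4, Ndufv3, Ndufa1, Ndufs3, Cox6b1, Cox4i1 and Atp5md, and on the lower side Cyc1, Sdha and Ndufs1. The share on the higher side was thus near that of all genes.

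Promoter windows from RefSeq (GRCm38.p6) were matched for 75 of the 92 members, in 80 windows from 250 bases before to 50 bases after a start site. Each motif was searched on both strands. The core of the site bound by the Nrf1 protein, whose letters are those in capitals in the Sdha window with any base at the sixth place, occurred in 22.5% of these windows and in 4.6% of all 32851 windows of the same length. CCGGAAG, a site of the ETS family that includes Gabpa, occurred in 23.8% and 8.86%, AAGATGGCG, a YY1 site, in 8.75% and 1.4%, and CACGTG, the E-box bound by Myc among others, in 8.75% and 7.15%. The searched motifs can overlap one another, and a match is only a run of letters. The 250 bases before the start site are shown for Cox7a2l and Cox6b1, which were higher, and for Sdha, which was lower with no overlap, all on the minus strand at chr17:83514334-83514583, chr7:30626115-30626364 and chr13:74350241-74350490. They are written 5′ to 3′ along the gene, with matches to these motifs in capitals.
Cox7a2l: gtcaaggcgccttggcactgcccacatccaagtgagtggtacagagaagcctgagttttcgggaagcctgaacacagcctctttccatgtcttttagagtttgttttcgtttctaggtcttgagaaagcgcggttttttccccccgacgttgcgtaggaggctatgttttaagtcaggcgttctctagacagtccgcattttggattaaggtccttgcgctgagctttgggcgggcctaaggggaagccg
Cox6b1: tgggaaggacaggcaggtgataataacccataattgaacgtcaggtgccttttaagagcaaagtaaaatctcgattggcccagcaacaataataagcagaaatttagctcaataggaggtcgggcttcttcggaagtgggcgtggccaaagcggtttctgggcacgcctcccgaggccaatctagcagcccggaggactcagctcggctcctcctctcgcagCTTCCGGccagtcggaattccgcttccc
Sdha: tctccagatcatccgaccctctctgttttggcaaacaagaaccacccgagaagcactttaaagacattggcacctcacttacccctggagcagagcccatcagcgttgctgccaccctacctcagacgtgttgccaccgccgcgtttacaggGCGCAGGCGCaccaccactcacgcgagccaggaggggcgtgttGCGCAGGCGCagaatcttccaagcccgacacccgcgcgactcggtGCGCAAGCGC
Sdha held 3 matches to the Nrf1 core, which start 98, 55 and 10 bases before the start site. Cox6b1 held 1 ETS match on the other strand, and Cox7a2l held none of the 4 motifs in this window. The Nrf1 core occurred in windows of 17 members, which lay on both sides of 0. Among them Atp5o had a log2 difference of 0.34 and Ndufs5 0.21, while Ndufaf4 had -0.43 and Ndufaf5 -0.19. The windows shown are single examples, and a link between a motif and the direction of a difference was not tested.

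Complex I was read through 6 core subunits, which carry the flavin and most iron-sulfur clusters, 28 accessory subunits and 8 assembly factors. Of the 6 core genes, 5 were above 0 and 1 below, with a median of 0.12 that became -0.02 without Notch1f/f tumour 3. Ndufs1, the largest core subunit, had 787, 579 and 583 in the Notch1+/+ tumours and 487, 564.5 and 511 in the Notch1f/f tumours, where the nearest tumours of the groups differed by little. Ndufs3, a core subunit of the peripheral arm, had 759, 763 and 851 against 920, 876 and 1045. The log2 differences of these genes were -0.30 ± 0.20 and 0.25 ± 0.17 (limma adjusted p = 0.523 and 0.526), and that of Ndufs1 was -0.16 without Notch1+/+ tumour 1. Ndufv2, a flavoprotein subunit, had 1816 ± 88.1 and 2096 ± 261.5, and Ndufs7, which holds the last iron-sulfur cluster before ubiquinone, 771 ± 111 and 878 ± 27.1. The groups of both overlapped.

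The accessory subunits surround the core and serve its stability and assembly. Of 27 tested, 21 were above 0 and 6 below, with a median of 0.17. Without Notch1f/f tumour 3 the median was 0.07. Of these 27 genes, 4 had an unadjusted p under 0.05 on the higher side and 0 on the lower, where all genes had 6.97% and 6.21%. Ndufs4, a subunit whose loss causes a Leigh-like disease, had 423, 518 and 478 in the Notch1+/+ tumours and 635, 660 and 775 in the Notch1f/f tumours. The log2 difference was 0.53 ± 0.19 (unadjusted p = 0.0193, limma adjusted p = 0.303). Its 3 dimmer probe sets had -0.03, 0.23 and 1.54, each with groups that overlapped. Ndufv3, a small subunit of the flavoprotein part, had 922.5, 859 and 948 against 1162, 1066 and 1799. Notch1f/f tumour 3 stood above the other 2 of its group, and the log2 difference of 0.52 ± 0.22 was 0.29 without it. Ndufa1, an X-linked subunit of the membrane arm, had 2350, 2201 and 2537 against 2767, 2821 and 3702, a log2 difference of 0.38 ± 0.16, or 0.24 without Notch1f/f tumour 3. Ndufb11, also X-linked, had 1366, 1614 and 1977 against 2240, 1897 and 2881. Its groups overlapped, and its 3 probe sets had log2 differences of 0.49, 0.23 and 0.60. The limma adjusted p-values of Ndufv3, Ndufa1 and Ndufb11 were 0.351, 0.355 and 0.349. Ndufb1, a small membrane-arm subunit on a dim probe set, had 23.9, 49.3 and 66.5 against 71.2, 50.1 and 123, with overlap. The log2 difference was 0.63 ± 0.36. On the lower side the accessory subunits reached -0.26, for Ndufa9.

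The 8 complex I assembly factors, which build the complex but are not part of it, lay mostly on the other side. Of these, 6 were below 0 and 2 above, with a median log2 difference of -0.15 and a range from -0.43 to 0.05. Their median was -0.18 without Notch1f/f tumour 3. Ndufaf4 had 604, 306 and 424 in the Notch1+/+ tumours and 327, 430 and 219.5 in the Notch1f/f tumours. Its log2 difference was -0.43 ± 0.31 (limma adjusted p = 0.556), and -0.19 without Notch1+/+ tumour 1 or without Notch1f/f tumour 3. Its dimmer probe set had 149, 180 and 176 against 64.1, 157 and 45.5, a log2 difference of -0.96 ± 0.37 (limma adjusted p = 0.3225), and Notch1f/f tumour 2 lay among the Notch1+/+ values. Ndufaf2, a molecular chaperone of a late assembly step, had 138, 140 and 134 against 77.3, 147 and 99.2, where Notch1f/f tumour 2 was the highest of all 6 and the other 2 were below every Notch1+/+ tumour. Ndufaf5, which modifies a core subunit, and Ndufaf7, a methyltransferase, had 74.8 ± 6.50 and 63.8 ± 6.83, and 110.5 ± 13.9 and 90.9 ± 13.5. No assembly factor had an unadjusted p under 0.05 on the probe set that read it.

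**Figure D3:**
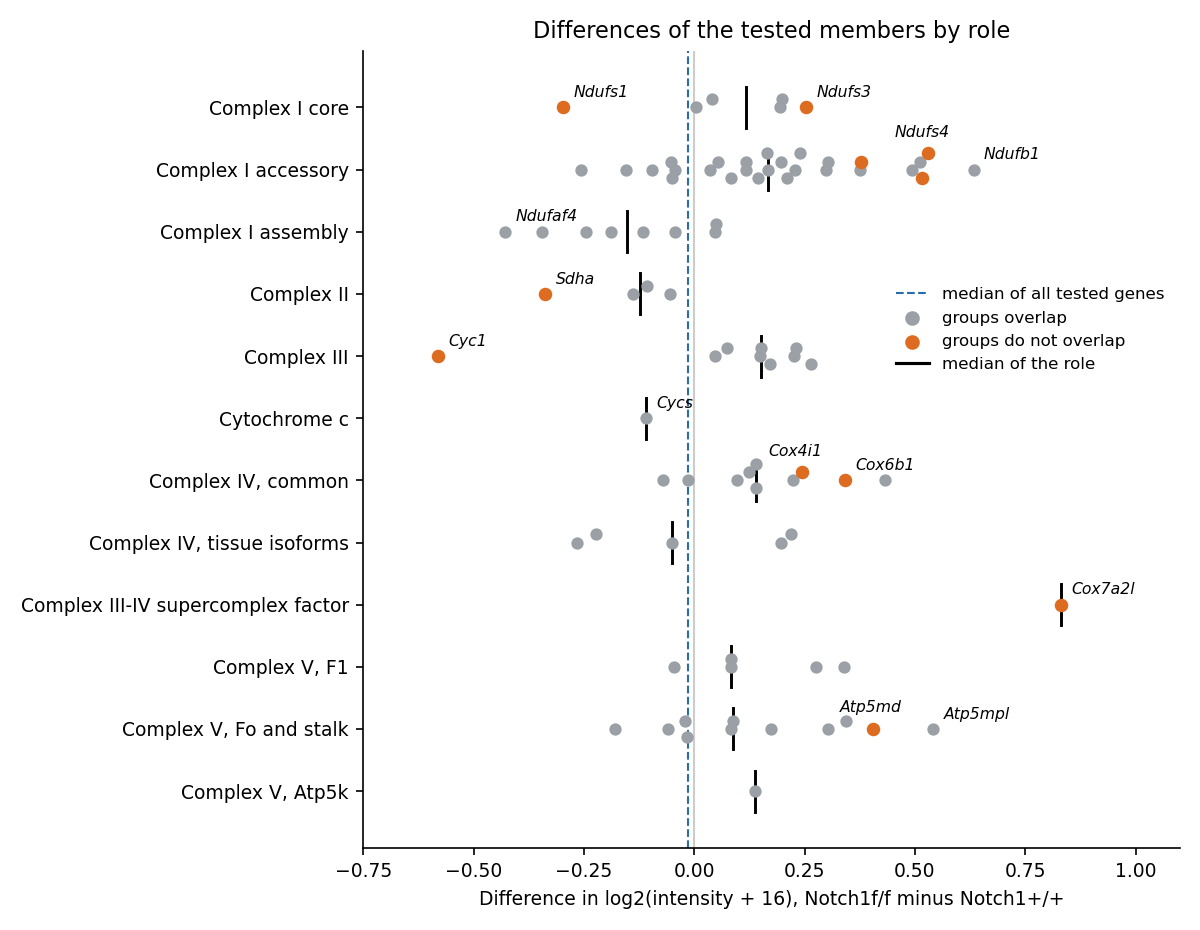
Each point is 1 of the 88 tested members, placed by its difference in log2(intensity + 16) between the Notch1f/f and Notch1+/+ tumours and sorted by role; orange points have groups that do not overlap, black lines are medians of a role and the dashed line is the median of all tested genes. Cox7a2l stands at 0.83 and Cyc1 at -0.58, while the medians of the roles with 4 or more genes lie between -0.15 and 0.17.

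Complex II, which is also the succinate dehydrogenase of the citric acid cycle, is the only complex made entirely from nuclear genes. On the probe sets that read them, all 4 subunits had log2 differences below 0, with a median of -0.12 (-0.25 with Notch1f/f tumour 3 left out and -0.03 with Notch1f/f tumour 1 left out). Sdha, the flavoprotein that oxidises succinate, had 1338, 1336 and 1531 in the Notch1+/+ tumours and 924, 1195 and 1216 in the Notch1f/f tumours. All Notch1f/f values were lower, with a log2 difference of -0.34 ± 0.18 (limma adjusted p = 0.421), and the difference was -0.09 with the mean of all Sdha probe sets. Sdhb, the iron-sulfur subunit, had 1711, 1708 and 1637 against 1182, 1511 and 2001, so the Notch1f/f tumours spanned the Notch1+/+ values on both sides. Sdhc and Sdhd, the membrane anchors, had 873 ± 219 and 794 ± 31.9, and 666 ± 66.2 and 643 ± 97.0. Their dimmer probe sets went opposite ways, both with no overlap. That of Sdhd had 139, 96.4 and 113 against 173, 163 and 142, a log2 difference of 0.42 ± 0.23, and that of Sdhc had -0.52 ± 0.23 (limma adjusted p = 0.451 and 0.3635). The log2 differences of Sdhb, Sdhc and Sdhd changed sign without single tumours, as given in the closing part.

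Complex IV was read through 10 subunits that are expressed in most tissues. Of these, 8 were above 0 and 2 below, with a median of 0.14 (0.01 without Notch1f/f tumour 3). Cox4i1, the common isoform of the largest nuclear subunit, had 3914, 3364 and 3647 in the Notch1+/+ tumours and 4024, 3973 and 4992 in the Notch1f/f tumours. The groups were close, with a log2 difference of 0.24 ± 0.15. Cox6b1, which links the monomers of the dimer, had 3238.5, 3252 and 3518 against 3874, 3695 and 5280, and a log2 difference of 0.34 ± 0.16. Their limma adjusted p-values were 0.478 and 0.392, and without Notch1f/f tumour 3 the log2 differences were 0.14 and 0.18. Cox6a1, Cox7a2 and Cox8a, the common partners of muscle isoforms, had log2 differences of -0.015 ± 0.15, 0.14 ± 0.16 and 0.14 ± 0.19. Ndufa4, first described in complex I and now placed in complex IV, had 1554 ± 242 and 1816 ± 286, and Cox7c 119 ± 8.72 and 179 ± 82.8. The Cox7c probe set was the dimmest of the 10, with 97.9 to 263, and is of a type that can bind several genes. Without detection calls its signal cannot be told from background.

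Of the isoforms of complex IV that other tissues use, all but Cox6b2 were dim. Cox6a2 and Cox7a1, the isoforms of heart and skeletal muscle, had at most 31.6 and 47.2 on any array. Cox4i2, an isoform of lung and of hypoxic cells, had at most 23.1, and Cox8b, another muscle isoform, at most 7.5. Ndufa4l2, a paralogue of Ndufa4 induced by hypoxia, had 16.6, 3.60 and 20.3 in the Notch1+/+ tumours and 3.20, 3.10 and 4.20 in the Notch1f/f tumours. Cox6b2 and Cox8c, isoforms best known from testis, had 102 to 270 and 36.4 to 55.0, with groups that overlapped. The filter stood at an intensity of 7.60 on average. Cox6b2 was over 100 on all 6 arrays, and the other isoforms were dimmer. Without detection calls the signals of these isoforms, that of Cox6b2 included, cannot be told from background.

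ATP synthase was read through 17 genes, with 12 log2 differences above 0 and 5 below and a median of 0.09. The 5 genes of the catalytic F1 head had a median of 0.08, which was -0.0050 with quantile normalisation. Atp5a1 and Atp5b, which form the catalytic ring, had 3176 ± 472 and 3360 ± 458, and 4125 ± 435 and 4011 ± 597. Their log2 differences of 0.08 ± 0.17 and -0.05 ± 0.16 had 95% intervals from -0.30 to 0.46 and from -0.40 to 0.31. Atp5d and Atp5e, of the central stalk, had log2 differences of 0.28 ± 0.22 and 0.34 ± 0.20. Without Notch1f/f tumour 3 these were 0.05 and 0.16, and without Notch1+/+ tumour 1 that of Atp5d was 0.16. In the membrane part and the outer stalk, 11 genes had a median of 0.09 (below 0 with quantile normalisation), with Atp5k, described with the small proteins, counted apart from them.

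The 3 genes of the c ring, Atp5g1, Atp5g2 and Atp5g3, encode the same mature protein behind different import sequences. Atp5g1 had 1123 ± 218 in the Notch1+/+ and 990 ± 185 in the Notch1f/f tumours, Atp5g2 had 2608 ± 528 and 2745 ± 444, and Atp5g3 had 4972 ± 172 and 4914 ± 550. All differences were smaller than the spread between the tumours. Several small proteins sit at the edge of the membrane part. Atp5mpl, one of them, had 990, 1464 and 1759 against 1719, 1834 and 2520, a log2 difference of 0.54 ± 0.24 (limma adjusted p = 0.369) that was 0.31 without Notch1+/+ tumour 1. Atp5md, which helps the synthase form dimers, had 547, 814 and 691 against 943, 864.5 and 892, with no overlap and a log2 difference of 0.40 ± 0.19, or 0.26 without Notch1+/+ tumour 1. Atp5l, subunit g, and Atp5k, subunit e, had log2 differences of 0.30 ± 0.17 and 0.14 ± 0.18, and Atp5o, the stalk subunit that confers sensitivity to oligomycin, 0.34 ± 0.23. Atp5o had 0.18 without Notch1+/+ tumour 1 or without Notch1f/f tumour 3, and its dimmer probe set had 0.83 ± 0.26 with no overlap (limma adjusted p = 0.290).

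A gene was not always read the same way by all its probe sets. Of 49 members with at least 2 tested probe sets, 30 had log2 differences of the same sign on all of them and 19 did not. Of the 92 members, 17 were read by a probe set type that can bind transcripts of several genes or of a gene family, and many subunit genes have processed pseudogenes. With such probe sets left out, 83 members were tested, with a median of 0.12 as before.

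Other genes of the pathway, taken from lists that hold no member, lay mostly on the lower side. Of 34 assembly factors of all complexes beyond the Ndufaf genes, 11 were above 0 and 23 below, with a median log2 difference of -0.14. An unadjusted p under 0.05 was found for 1 on the higher and 6 on the lower side, against 6.97% and 6.21% of all genes. Groups without overlap were found for 3 on the higher and 7 on the lower side, against 9.21% and 9.14% of all genes. Pet100, on the higher side, had 224 ± 61.1 in the Notch1+/+ and 356 ± 24.2 in the Notch1f/f tumours. Its groups did not overlap, and its log2 difference was 0.66 ± 0.23 (limma adjusted p = 0.304). Timmdc1, a membrane-arm assembly factor of complex I, had 89.0, 152 and 123.5 in the Notch1+/+ tumours and 41.2, 70.0 and 44.0 in the Notch1f/f tumours. The groups did not overlap, and the log2 difference was -1.02 ± 0.28 (limma adjusted p = 0.267). Nubpl, which delivers iron-sulfur clusters to complex I, had 112 ± 29.7 and 57.7 ± 4.04, and Sdhaf3, an assembly factor of complex II, 119 ± 11.8 and 68.9 ± 11.3.

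Of 16 citric acid cycle and pyruvate dehydrogenase genes, 5 were above 0 and 11 below, with a median of -0.27. Groups without overlap were found for 7 of them, all on the lower side, where all genes had 9.14%. Fh1, fumarase, had 1060.5, 1030 and 1469 in the Notch1+/+ tumours and 628, 797 and 673 in the Notch1f/f tumours. Its log2 difference was -0.74 ± 0.20 (limma adjusted p = 0.258). Idh3a, the catalytic subunit of the NAD-dependent isocitrate dehydrogenase, had 1177 ± 172 and 756 ± 205, and Pdhb, of pyruvate dehydrogenase, 1624 ± 278 and 1226 ± 73.8.

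Of 11 genes of ubiquinone synthesis, 4 were above 0 and 7 below, with a median of -0.27. Pdss2 and Coq3, which make the side chain and methylate the ring, had -0.54 ± 0.24 and -0.80 ± 0.35. Of 15 regulators of mitochondrial biogenesis, 3 were above 0 and 12 below, with a median of -0.26. Nrf1, a transcription factor of many respiratory chain genes, had 188, 155 and 158.5 in the Notch1+/+ tumours and 109, 138 and 76.4 in the Notch1f/f tumours. Pprc1, a coactivator induced by growth signals, had 382, 308 and 285.5 against 120, 320 and 72.9, so that Notch1f/f tumour 2 lay among the Notch1+/+ values. The limma adjusted p-values of Nrf1 and Pprc1 were 0.363 and 0.332, and no gene of these lists passed. Of 6 carriers and porins, 2 were above 0 and 4 below, with Vdac2 at -0.36 ± 0.15. A single mitochondrially encoded subunit was named on the array, ND5 of complex I, with 3230 ± 945 and 3111 ± 662.

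**Figure D4:**
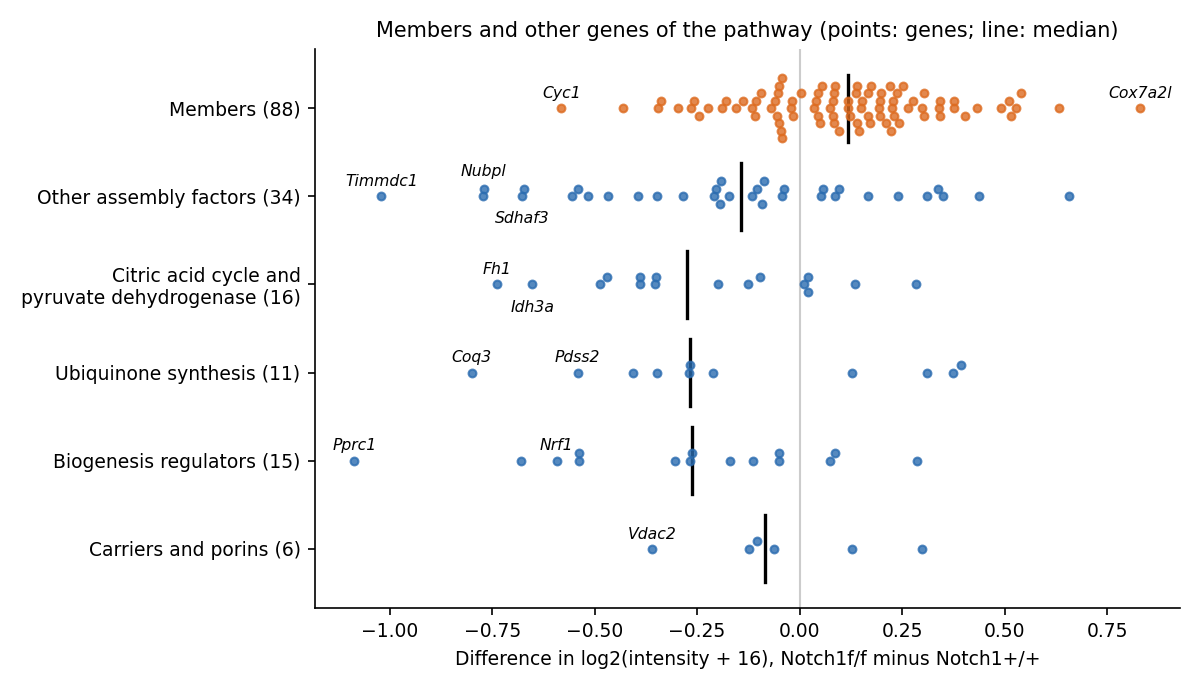
Each point is 1 gene, placed by its difference in log2(intensity + 16) between the Notch1f/f and Notch1+/+ tumours, with the number of tested genes in brackets and a line at the median. The members have a median of 0.12, and the other 5 lists shown have medians from -0.27 to -0.08.

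Without Notch1f/f tumour 3 the medians were -0.01 for the members, -0.23 for the citric acid cycle, -0.12 for the other assembly factors, -0.20 for ubiquinone synthesis and -0.23 for the regulators. The lists also differed in brightness. Genes of ubiquinone synthesis had at most 583 on any array (Coq2) and the other assembly factors at most 1171 (Cox17). Mdh2 of the citric acid cycle reached 3664, and the members had a median log2 intensity of 10.25 to 10.80. The difference between the members and these lists, and the part of brightness in it, were not tested.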

How the data were processed

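Biotin-labelled RNA of 6 thymic lymphomas was hybridised to Affymetrix arrays, 1 array per tumour. The authors deposited a linear intensity for each probe set, made with MAS5 according to the submitters' processing notes, without a stated version. MAS5 corrects background and combines the probes of a set into 1 signal, and each array had been scaled to a mean of 100 over the middle 96% of its values. No sample column was left unused, and no detection calls were used.

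Symbols came from the array's annotation table. All 92 members matched a RefSeq gene table (GRCm38.p6) through their Entrez identifiers, with 0 symbols changed. Of 45101 probe sets, 64 controls and those with a mean log2(intensity + 16) under the 40th percentile (4.56, an intensity of 7.60) were left out, which left 27022. These were fitted in limma 3.58.1 (R 4.3.3; lmFit, then eBayes with a variance trend), Notch1f/f minus Notch1+/+, two-sided, with Benjamini-Hochberg adjustment over all of them. No covariate was used, since age, given in the labels, changed together with genotype. The fit was tested on simulated data. Exact permutation tests over samples were two-sided. Precision is limited by the number of arrays, 3 in each group.

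The members, roles and lists were chosen with earlier results of these data known. Members named with values are up to 4 per role with the smallest p, the brightest per role, those without overlap and at least a 1.5-fold difference, and isoform groups; of the other lists, up to 3 each with the smallest p. Genes named outside this rule were chosen after their values were seen. Alternatives were a pseudocount of 1 or 64, no filter or the 60th percentile, quantile normalisation, median centring, no trend, array weights, all probe sets of a gene averaged, no _s_at or _x_at probe sets, a threshold of 0.10, and each tumour left out. Python 3.11.15 and matplotlib 3.10.9 were used for the figures.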

Additional observations from a re-analysis of the deposited data

How the results depend on the processing

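No member passed an adjusted p of 0.05 in limma under any of the 16 alternative fits, nor 0.10 in the main setting. With array weights, which kept all 6 tumours, the smallest limma adjusted p of a member was 0.0844. The smallest of any fit was 0.0657, for Cox7a2l without Notch1f/f tumour 2. The median log2 difference of the members was 0.12 and stayed above 0 except without Notch1f/f tumour 3, at -0.01, and was lowest among the other settings with quantile normalisation, at 0.05. The median log2 difference of all tested probe sets was between -0.06 and 0.0009 across settings. The cause of the following changes was not tested.

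The number of members at an unadjusted p of 0.05 on the higher side was 5, against 8 with median centring and 2 without the variance trend, and 1 to 8 with a tumour left out (1 with Notch1f/f tumour 3 left out, 8 with Notch1f/f tumour 1 or 2, 3 with Notch1+/+ tumour 1 or 2). On the lower side it was 1, against 2 with a pseudocount of 64, quantile normalisation, array weights or the mean of probe sets, 3 without a filter, and 0 to 1 with a tumour left out (0 without Notch1+/+ tumour 3 or Notch1f/f tumour 1). Members without overlap on the lower side numbered 5 with quantile normalisation. Leaving a tumour out leaves fewer values that can overlap, and these counts were then 8 to 22 on the higher side (13 and 22 without Notch1+/+ tumours 1 and 3, 17 and 19 without Notch1f/f tumours 1 and 2) and 4 to 11 on the lower side (7 without Notch1+/+ tumour 1, and 5 and 11 without Notch1f/f tumours 2 and 3). The median of the complex I assembly factors was -0.18 and -0.11 with a pseudocount of 1 and 64, -0.10 with quantile normalisation, -0.11 with median centring, -0.19 with array weights, -0.12 without _s_at and _x_at probe sets and -0.22 to -0.11 with a tumour left out. That of ubiquinone synthesis was -0.14 with array weights and -0.34 to -0.15 with a tumour left out (-0.15 without Notch1+/+ tumour 1, -0.18 without Notch1+/+ tumour 3).

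Changes of sign were followed only in the 49 tested members picked by the naming rule, not in the rest of the 88. Among those that changed sign, many were near 0, but Cox4i2 had -0.27 and Cox6a2 0.20 in the main setting. With quantile normalisation Atp5a1 had -0.0050, Atp5c1 -0.018 and Atp5g2 -0.0195. With median centring Atp5g3 had 0.023, Cox6a1 0.030 and Ndufaf8 0.0013. With array weights Atp5a1 had -0.0089, Atp5c1 -0.038, Atp5g2 -0.046, Cox6a1 0.019 and Ndufaf8 0.086. With the mean of probe sets Atp5c1 had -0.089, Atp5g2 -0.13, Cox6a1 0.072 and Sdhd 0.18, and without _s_at and _x_at probe sets Atp5c1 had -0.26. With a tumour left out the ranges were -0.028 to 0.19 for Atp5a1, -0.13 to 0.081 for Atp5b, -0.0545 to 0.23 for Atp5c1, -0.090 to 0.20 for Atp5g2, -0.11 to 0.0305 for Atp5g3, -0.0086 to 0.24 for Atp5k, -0.42 to 0.022 for Cox4i2, -0.13 to 0.090 for Cox6a1, -0.093 to 0.44 for Cox6a2, -0.30 to 0.29 for Cox6b2, -0.021 to 0.22 for Cox7a2, -0.0155 to 0.28 for Cox8a, -0.29 to 0.019 for Cycs, -0.17 to 0.091 for Ndufaf8, -0.33 to 0.045 for Sdhb, -0.25 to 0.083 for Sdhc and -0.17 to 0.044 for Sdhd. The median of the F1 genes of ATP synthase was -0.0050 with quantile normalisation, -0.0089 with array weights and -0.046 without _s_at and _x_at probe sets. No paired analysis was possible because the labels give no numbers that the tumours of both groups share.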
